A study of Rattus norvegicus with 4 samples.

Results

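The genes of the G2 phase and of mitosis, the last stages of the cell division cycle, were examined in CG4 cells with and without extra Phf8. The set was chosen by name: 45 symbols of cyclins, mitotic kinases, checkpoint, kinetochore, spindle and cytokinesis proteins were looked up in the table of normalized counts. Of these, 44 were among its 14410 genes, and all 44 passed the filter on low values, which 14368 genes passed; Ccnb2, a B-type cyclin, was not analysed here. CG4 is a rat line of oligodendrocyte progenitors, which give rise to the cells that wrap axons of the brain and spinal cord in myelin. Wildtype CG4 cells had received a retrovirus with a CAG promoter and GFP (ctrl, CAG-IRES-GFP, 2 libraries) or the same vector carrying Phf8 as well (Phf8oe, CAG-Phf8-IRES-GFP, 2 libraries). Both groups were thus transduced, sorted for GFP, expanded and then held under differentiating conditions for 3 days before RNA was taken. The comparison asks how the expression of these genes differs in differentiating cells when Phf8, a histone demethylase, is supplied.

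Entry into mitosis is driven by Cdk1 bound to A- and B-type cyclins, and exit by the anaphase promoting complex, a ubiquitin ligase that marks those cyclins and securin for destruction. Most genes of this machinery are transcribed late in the cycle and shut off in resting cells. Their promoters are known for CCAAT boxes, bound by the factor NF-Y, and for the cell cycle homology region (CHR), an element through which the MuvB complex represses them in resting cells and activates them in G2. Proliferating oligodendrocyte progenitors express these genes, and differentiation into oligodendrocytes is accompanied by exit from the cycle. Human PHF8 is itself phosphorylated during mitosis and is a known target of the anaphase promoting complex with its activator CDC20.

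The promoters of 6 members are shown, so that the elements can be seen in genes that rose and in genes that did not. They are the 3 members that rose (Cdc20, Birc5, Ube2s), the member with the highest fold change (Pttg1), the main mitotic cyclin gene Ccnb1, and Cenpf, which lay near no change. The sequences are RefSeq's for the GRCr8 rat assembly, from 250 bases before to 50 bases after the annotated start, written 5′ to 3′ in the direction of transcription. Their places in GRCr8 are chr5:137255750-137256049 on the minus strand, chr10:103571896-103572195 on the plus strand, chr1:78057409-78057708 on the plus strand, chr10:28406277-28406576 on the minus strand, chr2:33655176-33655475 on the minus strand and chr13:103760837-103761136 on the minus strand. Capitals mark matches on either strand to the NF-Y box CCAAT, to the CHR sequence TTTGAA and to its variant TTCGAA.
Cdc20: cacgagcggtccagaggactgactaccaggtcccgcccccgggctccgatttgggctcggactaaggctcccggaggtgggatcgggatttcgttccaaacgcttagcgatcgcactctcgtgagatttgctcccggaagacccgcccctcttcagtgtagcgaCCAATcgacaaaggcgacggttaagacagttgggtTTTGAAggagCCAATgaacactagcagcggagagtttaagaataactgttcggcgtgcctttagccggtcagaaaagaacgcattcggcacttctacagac
Birc5: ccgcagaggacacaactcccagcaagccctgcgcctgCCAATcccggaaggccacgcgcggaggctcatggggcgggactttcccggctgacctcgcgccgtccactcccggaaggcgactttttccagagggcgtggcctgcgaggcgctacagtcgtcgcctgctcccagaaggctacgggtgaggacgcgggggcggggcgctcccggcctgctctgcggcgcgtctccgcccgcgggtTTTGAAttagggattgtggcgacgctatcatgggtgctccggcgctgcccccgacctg
Ube2s: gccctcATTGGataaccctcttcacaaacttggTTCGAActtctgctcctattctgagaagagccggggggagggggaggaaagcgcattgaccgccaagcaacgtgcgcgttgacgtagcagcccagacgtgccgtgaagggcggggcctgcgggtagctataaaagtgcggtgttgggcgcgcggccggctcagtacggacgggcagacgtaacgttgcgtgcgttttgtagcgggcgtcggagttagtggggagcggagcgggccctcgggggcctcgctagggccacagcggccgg
Pttg1: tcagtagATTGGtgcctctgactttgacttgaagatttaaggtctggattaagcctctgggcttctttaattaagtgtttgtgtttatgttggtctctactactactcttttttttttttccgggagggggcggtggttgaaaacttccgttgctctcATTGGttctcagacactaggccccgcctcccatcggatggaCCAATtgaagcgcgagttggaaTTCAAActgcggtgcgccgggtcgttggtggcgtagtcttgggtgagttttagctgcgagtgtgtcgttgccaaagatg
Ccnb1: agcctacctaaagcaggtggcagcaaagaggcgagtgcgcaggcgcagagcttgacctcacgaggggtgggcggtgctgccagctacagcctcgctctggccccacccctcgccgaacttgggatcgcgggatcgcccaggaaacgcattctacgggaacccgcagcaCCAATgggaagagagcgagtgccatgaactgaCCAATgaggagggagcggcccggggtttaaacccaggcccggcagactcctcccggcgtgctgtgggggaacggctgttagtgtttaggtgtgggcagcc
Cenpf: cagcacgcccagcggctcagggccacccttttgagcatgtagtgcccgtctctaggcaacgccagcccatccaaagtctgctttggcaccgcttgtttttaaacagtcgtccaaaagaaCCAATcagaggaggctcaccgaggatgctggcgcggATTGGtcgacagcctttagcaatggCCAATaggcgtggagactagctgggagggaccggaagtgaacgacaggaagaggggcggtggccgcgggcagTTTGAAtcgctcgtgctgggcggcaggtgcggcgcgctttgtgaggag

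The Cdc20 promoter held 2 CCAAT boxes and 1 CHR element, and that of Birc5 held 1 of each, its CHR element beginning 8 bases before the start. In Ube2s the matches, 1 CCAAT box and 1 CHR variant, lay far upstream, and there was no match to TTTGAA. Pttg1 and Cenpf each had 3 CCAAT boxes and 1 CHR element, although Pttg1 had the highest fold change of the 44 genes and Cenpf one of the 4 lowest. Ccnb1 had 2 CCAAT boxes and no match to either CHR sequence in this window.

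Of the 44 members, 38 matched a RefSeq promoter. CCAAT was found in 30 of the 38 (78.9%), against 37.8% of the 9954 tested genes with a promoter and 37.7% of all 27457 promoters. TTTGAA was found in 27 of the 38 (71.1%), against 11.4% of tested genes and 18.1% of all promoters. Both were present in 22 members (57.9%), against 4.77% of tested genes and 7.25% of all promoters. Only 3 of these members had neither CCAAT nor TTTGAA. The variant TTCGAA was in 4 members (10.5%, against 2.06% of tested genes and 1.77% of all promoters). The E2F sequence TTCGCGC, searched on both strands, was in 2 members (5.26%, against 2.97% of tested genes and 1.58% of all promoters), and TTGGCGC was in 3 (7.89%, against 4.23% and 2.43%). The median position of the CCAAT matches was 106 bases and that of the CHR matches 22 bases before the start. The reverse complement of CCAAT ends in the first 4 bases of TTGGCGC, so matches to these can overlap. The median log2 fold change was 0.26 in members with TTTGAA and 0.41 in those without, and it was 0.34 with CCAAT and 0.24 without. These are medians over genes, given as a description.

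**Figure D1:**
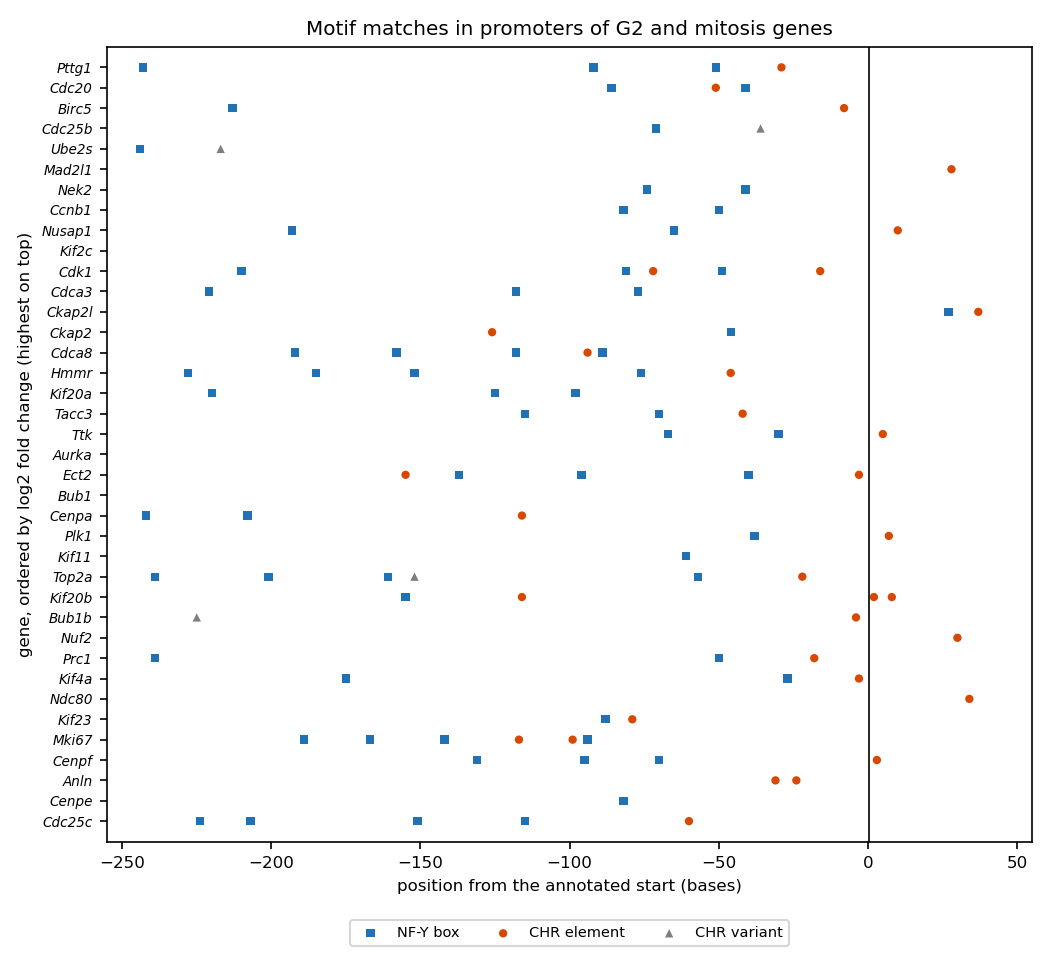
Positions of NF-Y boxes (CCAAT), CHR elements (TTTGAA) and the CHR variant (TTCGAA) in the promoters of 38 G2 and mitosis genes, in bases from the annotated start (vertical line), with genes ordered by log2 fold change of Phf8oe against ctrl. CHR elements gather around the start (median 22 bases upstream) and NF-Y boxes further upstream (median 106 bases). The median log2 fold change is 0.26 in genes with a CHR element and 0.41 in those without.

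Deposited totals ran from 39945215 to 41149255 normalized counts a library, and the reads behind them were estimated at 28400000 to 47800000. Phf8 itself read 2026 and 2205 normalized counts in ctrl, against 5650 and 10796 in Phf8oe. It was higher in both Phf8oe libraries, as labelled, with an adjusted p of 0.0631. The 7 progenitor markers summed to 149775 to 173446, although Cspg4 (NG2), a defining one, stood at only 32 to 79, and Pdgfra fell. The 8 markers of differentiated oligodendrocytes summed to 399241 and 387411 in ctrl and 639525 and 587133 in Phf8oe. CG4 is a progenitor line, but after 3 days under differentiating conditions Mbp, a marker of differentiated cells, stood at 173338 or more in every library. Markers of other cell types were measured in part, and those without a row were not analysed here. They were low for microglia (142 to 214 summed over Cd68 and Csf1r), endothelium (319 to 534 over Kdr and Tek) and for the fibroblast marker Col1a1, which fell from 454 and 437 in ctrl to 121 and 164 in Phf8oe (3.15-fold lower, adjusted p = 0.00361). Neuronal markers summed to 12844 and 9405 in ctrl and 6076 and 6696 in Phf8oe, none of them past the test, and Schwann cell markers, mostly Sox2, to 34745 to 38627. The 5 astrocyte markers, mostly Gfap, summed to 80336 and 82115 in ctrl and 12545 and 21452 in Phf8oe. Of the differentiated oligodendrocyte markers 4 of 8 rose. Of the 5 astrocyte markers Slc1a3 and Aldh1l1 rose and Gfap fell. Among all genes 2.99% were called higher and 4.65% lower. Aldh1l1 read only 9 and 10 in ctrl and 32 and 44 in Phf8oe, close to the filter on low values. The part of all these markers in the values of the mitotic genes was not tested. RNA came from whole cultures, so a larger share of cells in G2 or mitosis and more of these transcripts per cell cannot be told apart.

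Most G2 and mitosis genes lay somewhat higher in Phf8oe, but only 3 of the 44 passed the test. Cdc20, which activates the anaphase promoting complex, and Birc5 (survivin), a subunit of the chromosomal passenger complex, rose 1.48-fold each. Ube2s, which extends the ubiquitin chains that this ligase builds, rose 1.46-fold, and no member fell. Of the remaining 41, 37 had a log2 fold change above 0 and 4 below it. The median over the 44 genes was 0.33 on the log2 scale, with the middle of the genes between 0.2 and 0.43, while the median over all genes tested was 0 (quartiles -0.22 and 0.22).

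A gene was called where limma's p, adjusted over all genes tested by the Benjamini-Hochberg method, was under 0.05. By it, 6.82% of the members were called higher, against 2.99% of all genes. None was called lower, against 4.65% of all genes. Among all genes 430 were called higher and 668 lower, a split that became 614 and 598 when libraries were scaled to equal upper quartiles. Of the 41 members not called, 18 had an unadjusted p under 0.05, every one of them higher in Phf8oe. Over all genes, 2680 of the 13270 uncalled had such a p, in either direction. With called genes included, 21 of 44 members had such a p and lay higher, against 1826 of all 14368 genes. The limma-voom fit on estimated reads called Aurkb besides the same 3. Both Phf8oe libraries stood above both ctrl libraries in 32 of 44 members (72.7%), against 28.9% of all genes. They stood below in Cdc25c and Anln, and the groups overlapped in 10. With 2 libraries a group, an exact permutation test of a single gene cannot give a two-sided p below 0.333, so all calls rest on the variance that limma shares across genes. None of the 3 calls held without ctrl replicate 1 or without ctrl replicate 2, whereas all held without either Phf8oe library. Each such fit leaves 1 library in a group. With 1 library left out, the log2 fold change was 0.44 to 0.7 for Cdc20, 0.49 to 0.64 for Birc5 and 0.53 to 0.56 for Ube2s.

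**Figure D2:**
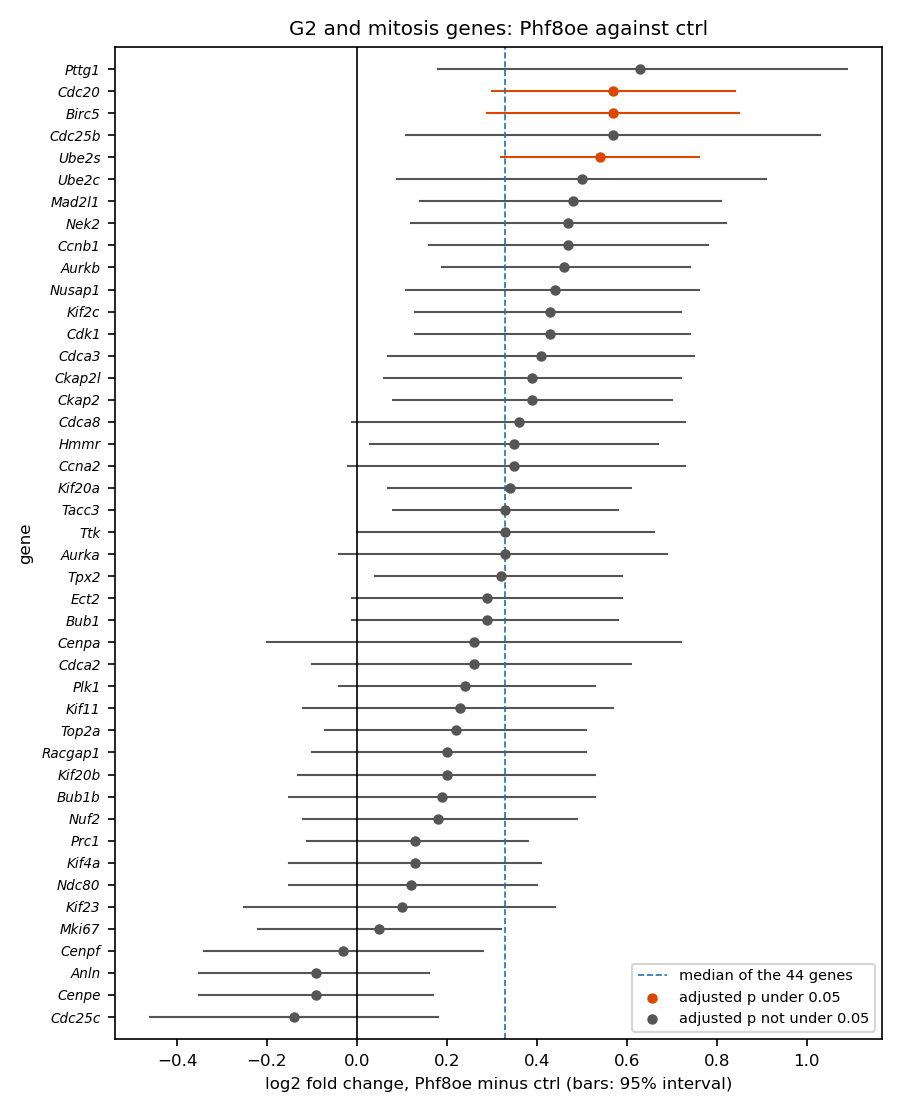
Log2 fold change of Phf8oe against ctrl for 44 G2 and mitosis genes, with bars for the 95% interval from limma (2 libraries per group). The points lie between -0.14 (Cdc25c) and 0.63 (Pttg1) around a median of 0.33 (dashed), and the 3 genes with an adjusted p under 0.05 are Cdc20, Birc5 and Ube2s.

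The genes of ubiquitin ligases, their activators and securin formed the role with the highest median log2 fold change, 0.54. All 5 had both Phf8oe libraries above both ctrl libraries, as did 28.9% of all genes. These 5 genes are short, from 2.4 kb (Ube2c) to 11.5 kb (Pttg1) with introns, and role was not tested apart from length. Ube2s read 9004 and 9074 normalized counts in ctrl, against 13015 and 13312 with Phf8 (log2 fold change 0.54, SE 0.1, adjusted p = 0.0149). Its replicates nearly coincided, and the gap between the groups was far wider than either pair. RefSeq names 4 pseudogenes of Ube2s and 4 of Ube2c in GRCr8, so some of their reads may be hard to place. Cdc20 read 1638 and 1964 in ctrl, against 2585 and 2744 with Phf8 (log2 fold change 0.57, SE 0.12, adjusted p = 0.026). Pttg1, encoding securin, which guards sister chromatid cohesion, read 488 and 740 in ctrl and 921 and 942 in Phf8oe. It had the highest fold change of the set, 1.55-fold, but the ctrl libraries lay far apart and it did not pass (log2 fold change 0.63, 95% interval 0.18 to 1.09, adjusted p = 0.0915). Ube2c, the enzyme that starts those ubiquitin chains, and Cdca3, a factor in the degradation of the Cdk1 inhibitor Wee1, had log2 fold changes of 0.5 and 0.41 and did not pass.

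In the chromosomal passenger complex, which corrects faulty attachments of chromosomes and later steers cytokinesis, Birc5 read 655 and 727 in ctrl, against 998 and 1049 with Phf8 (log2 fold change 0.57, SE 0.12, adjusted p = 0.0304). Aurkb, the kinase of this complex, read 850 and 968 against 1214 and 1290 (log2 fold change 0.46, 95% interval 0.19 to 0.74). Its adjusted p was 0.0519, just beyond the threshold, and 0.0487 by limma-voom. Cdca8, the borealin subunit, and Cdca2, which brings a phosphatase to chromosomes at anaphase, stood at 0.36 and 0.26 and did not pass.

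Cyclins and Cdk1 lay higher without passing. Ccnb1 read 1071 and 1337 normalized counts in ctrl, against 1566 and 1759 with Phf8 (log2 fold change 0.47, 95% interval 0.16 to 0.78, adjusted p = 0.0657). Cdk1, the kinase it activates, read 1283 and 1624 against 1854 and 2045 (log2 fold change 0.43, adjusted p = 0.0823). For Ccnb1 and Cdk1 both Phf8oe libraries stood above both ctrl libraries, as they did in 28.9% of all genes. Each pair of their replicates differed by 0.34 or less on the log2 scale. The 2 phosphatase genes that switch Cdk1 on had log2 fold changes of opposite sign. Neither passed, and the difference between them was not tested. Cdc25b read 1147 and 1560 against 2290 and 1729 (log2 fold change 0.57, adjusted p = 0.119), whereas Cdc25c read 523 and 522 against 458 and 491 (log2 fold change -0.14, 95% interval -0.46 to 0.18, adjusted p = 0.574). Cdc25c had the lowest fold change of the set, and the 2 Cdc25 genes were set side by side after their values were seen. Ccna2, the A-type cyclin of S and G2 phase, stood at 0.35.

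Among kinases of the centrosome and spindle poles, Nek2, which acts in centrosome separation, read 366 and 414 in ctrl, against 508 and 572 with Phf8 (log2 fold change 0.47, adjusted p = 0.0959). Plk1 read 1364 and 1621 against 1674 and 1855 (log2 fold change 0.24, adjusted p = 0.244), so that its lower Phf8oe library stood barely above its higher ctrl library. Aurka stood at 0.33. In the spindle checkpoint, which delays anaphase until all chromosomes are attached, Mad2l1 read 450 and 526 against 643 and 716 (log2 fold change 0.48, adjusted p = 0.0801). The checkpoint kinase gene Bub1 read 1128 and 1397 against 1510 and 1552 (log2 fold change 0.29, adjusted p = 0.196). Ttk and Bub1b stood at 0.33 and 0.19, and none of these 7 genes passed.

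The centromere and kinetochore genes had a median of 0.12, the lowest of the 10 roles. Cenpf, a large kinetochore protein, read 1560 and 2011 in ctrl and 1663 and 1811 in Phf8oe. Both Phf8oe values lay between those of ctrl, and the log2 fold change was -0.03 (95% interval -0.34 to 0.28, adjusted p = 0.918), or 0.01 with upper quartile scaling. Nuf2, of the complex that grips microtubules, read 731 and 883 against 897 and 925 (log2 fold change 0.18, adjusted p = 0.429). Its partner Ndc80 stood at 0.12, the centromeric histone gene Cenpa at 0.26 and the kinetochore motor gene Cenpe at -0.09.

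All 6 mitotic kinesin genes had positive log2 fold changes, between 0.1 (Kif23) and 0.43 (Kif2c), and none passed. Kif2c, which dismantles microtubule ends at centromeres, read 963 and 1184 against 1391 and 1485 (adjusted p = 0.0777). Kif20a, a motor needed for cytokinesis, read 1046 and 1204 against 1392 and 1451 (log2 fold change 0.34, adjusted p = 0.108). Both Phf8oe libraries exceeded both ctrl libraries in these 2 genes and in Kif20b and Kif4a. This was 4 of the 6 kinesin genes, against 28.9% of all genes. Kif11, the motor that pushes the spindle poles apart, Kif20b and Kif4a stood at 0.23, 0.2 and 0.13.

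Spindle and microtubule proteins were uniform in direction: in all 7 both Phf8oe libraries exceeded both ctrl libraries (28.9% of all genes), although none passed. Nusap1, which bundles spindle microtubules, read 1192 and 1575 against 1796 and 1920 (log2 fold change 0.44, adjusted p = 0.0952). Tpx2, the activator of Aurora A, read 2785 and 3440 against 3695 and 4016 (log2 fold change 0.32, adjusted p = 0.141). The others, Ckap2, Ckap2l, Hmmr, Tacc3 and Prc1, lay between 0.13 (Prc1) and 0.39. Of the cytokinesis genes, Ect2, which activates RhoA at the cleavage site, read 843 and 1009 against 1071 and 1184 (log2 fold change 0.29, adjusted p = 0.206). Racgap1, its partner, read 2101 and 2661 against 2548 and 2908 (log2 fold change 0.2, adjusted p = 0.375), with overlapping groups. Anln, an actin-binding scaffold, stood at -0.09.

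Top2a, the topoisomerase that untangles sister chromatids, read 4486 and 5775 in ctrl, against 5855 and 6023 with Phf8 (log2 fold change 0.22, adjusted p = 0.306). Mki67, whose protein Ki-67 is the common marker of cycling cells, read 2697 and 3308 against 3011 and 3169. The Phf8oe values of Mki67 lay between the ctrl values, and its log2 fold change was 0.05 (95% interval -0.22 to 0.32); it was picked after its values were seen.

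**Figure D3:**
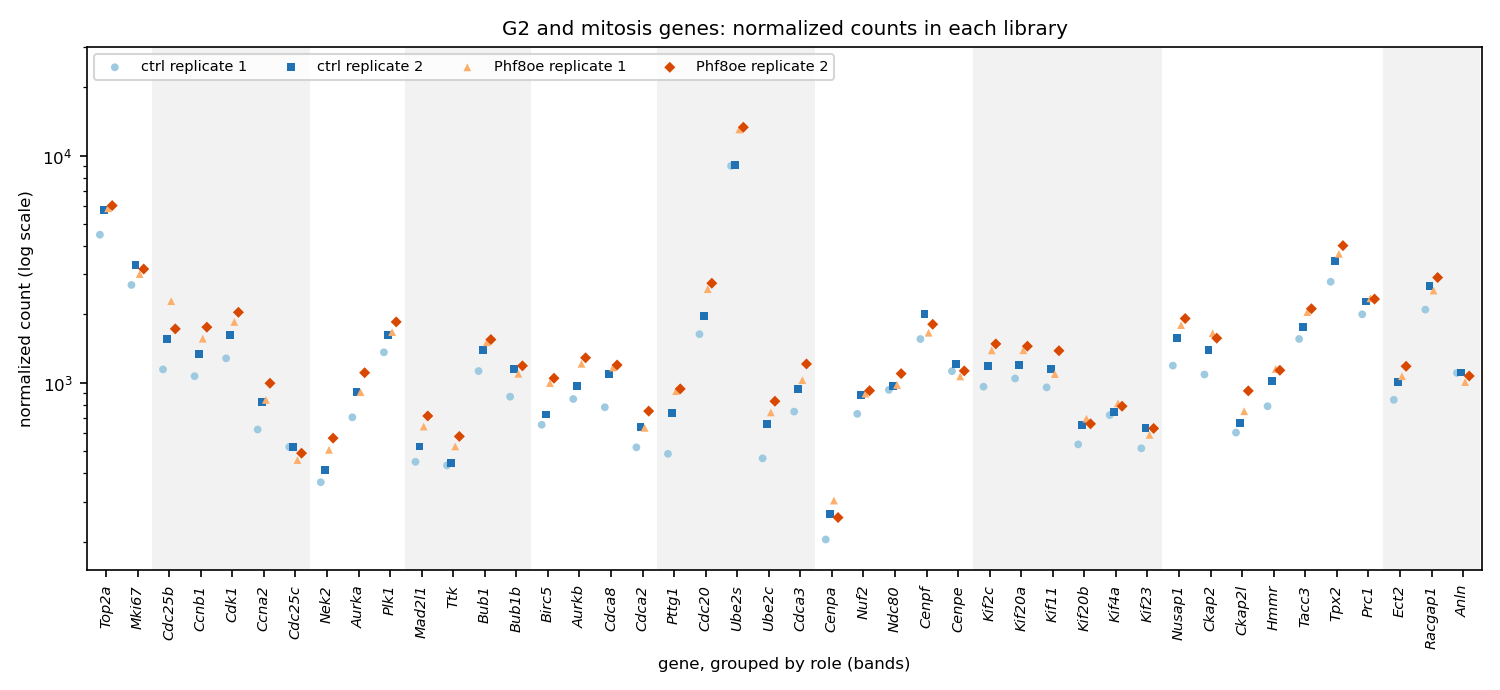
Normalized counts (log axis) of 44 G2 and mitosis genes in the 4 libraries, grouped by role in shaded bands in the order proliferation, cyclins and Cdk1, centrosome kinases, spindle checkpoint, passenger complex, ubiquitin and securin, kinetochore, kinesins, spindle and cytokinesis. In most genes ctrl replicate 1 is the lowest point and Phf8oe replicate 2 the highest, and the groups stand clearly apart for Ube2s, Cdc20 and Birc5.

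The mitotic genes also differed between the ctrl libraries, and did so together. In 43 of 44 members ctrl replicate 2 exceeded ctrl replicate 1, which held for 49.7% of all genes, and the median difference was 0.29 on the log2 scale against 0 over all genes. The exception, Cdc25c, read 523 and 522. Ctrl replicate 1 was the lowest of the 4 libraries in 41 of the 44 genes, and Phf8oe replicate 2 the highest in 31. Between the Phf8oe libraries the difference was smaller, with replicate 2 above replicate 1 in 37 of 44 (50.4% of all genes) by a median of 0.09. The geometric mean of the 44 genes was 953 and 1149 normalized counts in ctrl, against 1249 and 1329 in Phf8oe. Their sum made up 0.138% and 0.165% of the ctrl totals and 0.18% and 0.194% of the Phf8oe totals.

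The difference between the ctrl libraries (0.29) was thus nearly as large as the median difference between the groups (0.33). Measured against ctrl replicate 2 alone, the median log2 difference of the Phf8oe mean was 0.16, and against ctrl replicate 1 alone it was 0.44. Both Phf8oe libraries exceeded ctrl replicate 2 in 32 of 44 members, against 37.4% of all genes. These are the same 32 that exceeded both ctrl libraries. Ctrl replicate 2 was the higher ctrl library in 43 of the 44, so this count adds nothing to the earlier one. Without ctrl replicate 1, Mki67, Bub1b and Kif23 turned to slightly negative log2 fold changes (-0.1, -0.01 and -0.05). Ube2s kept its value of 0.54 in that comparison, while Birc5 moved to 0.49, Cdc20 to 0.44 and Pttg1 to 0.33.

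Among 50 S phase genes the ctrl libraries lay closer together and the Phf8oe libraries further apart. Ctrl replicate 2 exceeded replicate 1 in 27, with a median difference of 0.03, and Phf8oe replicate 2 exceeded replicate 1 in 44, with a median difference of 0.19. Their median log2 fold change between the groups was 0.28. The 80 other G2 and mitosis genes lay between these patterns, with ctrl replicate 2 the higher in 68 and a median difference of 0.17. Whether the lists differ in this respect was not tested.

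**Figure D4:**
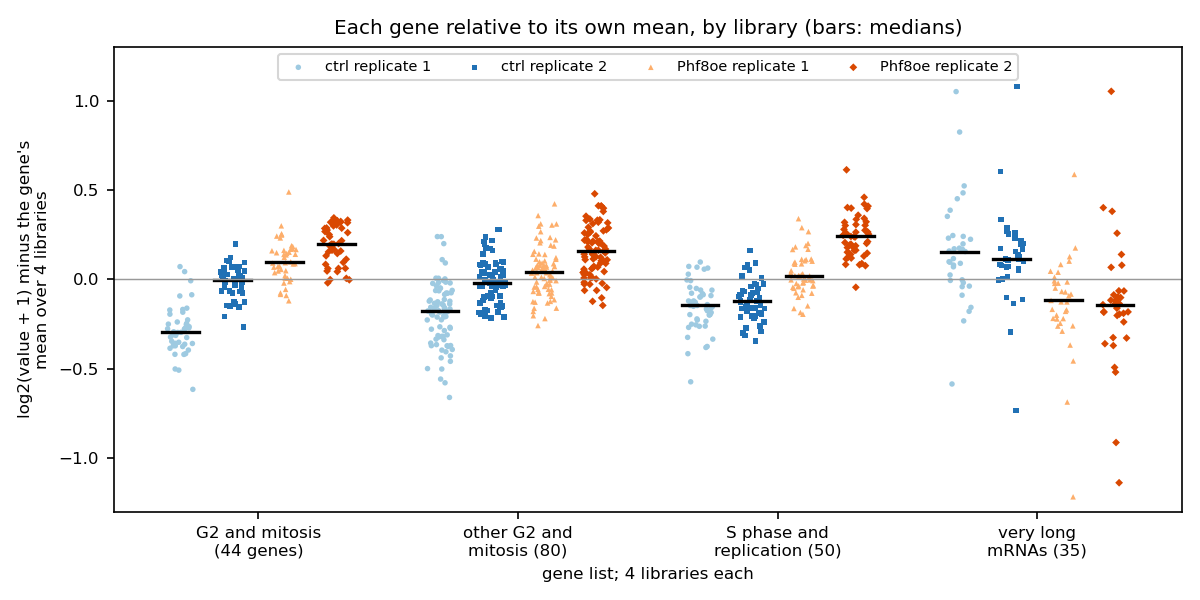
Log2(value + 1) of each gene minus its own mean over the 4 libraries, for G2 and mitosis genes, other G2 and mitosis genes, S phase genes and very long messenger RNAs, with a bar at the median of each library. The medians of the 44 G2 and mitosis genes run from -0.29 in ctrl replicate 1 through 0 in ctrl replicate 2 to 0.1 and 0.2 in the Phf8oe libraries, whereas those of the S phase genes are -0.15 and -0.12 in ctrl and 0.02 and 0.24 in Phf8oe.

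The members also shifted relative to one another. Each was set against the geometric mean of all 44 in the same library, with its ctrl mean placed at 0, which takes out what the genes share within a library; its ctrl values then mirror each other. On this log2 scale Birc5 stood at 0.06 and -0.06 in ctrl and 0.28 and 0.26 in Phf8oe. Cdc20 stood at 0 in both ctrl libraries and at 0.27 in both Phf8oe libraries. Pttg1, the highest of the set, stood at -0.17 and 0.17 against 0.36 and 0.3, so its spread within ctrl remained wide. At the other end, Cdc25c stood at 0.14 and -0.14 against -0.45 and -0.43, and Cenpe at 0.08 and -0.08 against -0.38 and -0.39. Mki67 stood at -0.01 and 0.01 against -0.24 and -0.26. The replicates of Cdc20 and Mki67 were thus much closer on this scale than in normalized counts. The ctrl replicates of Cdc25c and Ube2s, nearly equal in normalized counts, lay further apart on it. Ube2s stood at 0.13 and -0.13 in ctrl, against 0.27 and 0.21 in Phf8oe. These values are a description with no test.

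The order of the members went with the length of their genes. Across the 44 genes, log2 fold change and gene length (introns included, GRCr8 annotation of RefSeq) correlated at Spearman's rho = -0.68 and at Pearson's r = -0.63 with log10 length. Across all 12093 tested genes with a length the values were -0.21 and -0.15. The genes share the same 4 libraries and are not independent, so no p is given. The 9 members of up to 10 kb, among them Ube2s, Cdc20 and Ube2c, had a median log2 fold change of 0.46, and the 9 from 10 to 20 kb, among them Birc5 and Pttg1, one of 0.47. The median was 0.29 in the 15 members of 20 to 40 kb and 0.19 in the 11 longer ones, which range from -0.09 (Cenpe, Anln) to 0.32 (Tpx2). All tested genes in these length ranges had medians of 0.08, 0.04, 0.01 and -0.09. The members' median was above that of all tested genes in each of the 4 length ranges. It was alike in the first pair of ranges and lower in the longer ones. Of 35 very long messenger RNAs outside mitosis 9 fell and none rose, with a median of -0.27, while 4.65% of all genes fell and 2.99% rose. The 4 with the smallest p were Ahnak (1087 and 1109 against 225 and 278), Dst (18698 and 15602 against 9483 and 10364), Kmt2a (1715 and 1531 against 972 and 970) and Birc6 (2470 and 2330 against 1615 and 1507). Whether the length of the gene or that of its transcript goes with the fold change was not tested. Between fold change and mean level of the members, Spearman's rho was 0.01.

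**Figure D5:**
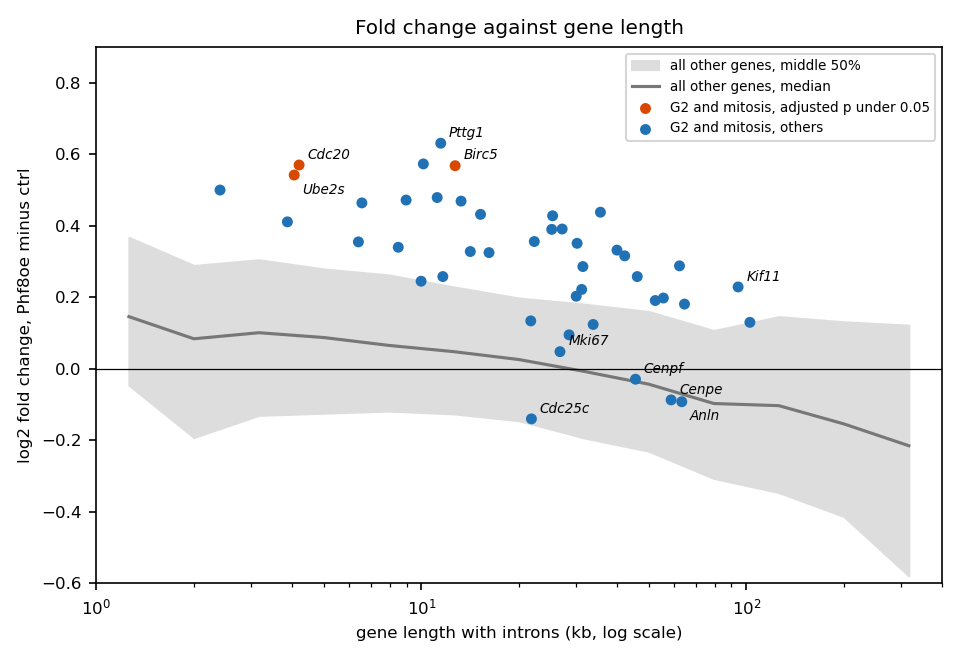
Log2 fold change of Phf8oe against ctrl (vertical) against gene length with introns in kb (horizontal, log axis) for 44 G2 and mitosis genes (points) and all other genes (grey line, median, and band, middle 50%). The 9 members of up to 10 kb have a median of 0.46 (0.24 to 0.57) and the 11 of over 40 kb one of 0.19 (-0.09 to 0.32), while the grey line declines from above 0 to below 0.

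In the GRCr8 annotation 8 of the 44 members overlapped another tested gene: Cdca3 with Usp5, Kif20a with Cdc23, Tacc3 with Tmem129, Aurka with Fam210b, Nusap1 with Ndufaf1, Cdca2 with Kctd9, Kif11 with Ide and Kif4a with Pdzd11. The strand setting of the counting was not given in the sources used here, so reads of these pairs may not be separable. The 3 genes that rose were not among them.

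Of a list of 80 other G2 and mitosis genes, 4 rose, none fell and 76 did not pass. Their median was 0.18 on the log2 scale. The risers were Lmnb1, encoding lamin B1 of the nuclear envelope (1302 and 1423 against 1932 and 2049, 1.46-fold, adjusted p = 0.0222), Cenpm, a centromere protein (520 and 629 against 887 and 901, 1.56-fold, adjusted p = 0.0294), Pimreg, a mitotic regulator (1066 and 1415 against 1864 and 1848, 1.51-fold, adjusted p = 0.0408), and Espl1. Espl1 encodes separase, the protease that securin restrains; it read 1602 and 1792 in ctrl and 2442 and 2224 in Phf8oe (1.38-fold, adjusted p = 0.0412). Both Phf8oe libraries exceeded both ctrl libraries in 44 of these 80 genes (55%), against 28.9% of all genes. The share called higher was 5%, against 2.99% of all genes. Over this list and those that follow, with the very long messenger RNAs, 20 genes were called; the count was 1 without ctrl replicate 1, 3 without ctrl replicate 2 and 0 without the variance trend.

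Of 16 genes listed for the anaphase promoting complex itself, none passed in limma or in limma-voom, and the median log2 fold change was 0.11. An unadjusted p under 0.05 was found for 3 of the 16, and for 3778 of all 14368 genes. Anapc5 read 11831 and 11931 against 12516 and 12893 (log2 fold change 0.1), and Anapc1 read 5088 and 5330 against 4853 and 4612 (log2 fold change -0.14). Of 24 regulators of cell cycle transcription (the retinoblastoma, E2F, MuvB, FoxM1 and NF-Y genes) the S phase activator E2f1 alone passed, from 419 and 375 to 581 and 663 (1.56-fold, adjusted p = 0.0367). This was 4.17% of the list, near the 2.99% of all genes called higher, and the median of the 24 was 0.01.

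Among 50 S phase genes 4 rose (8%, against 2.99% of all genes) and none fell (4.65% of all genes). Pold1, which encodes the catalytic chain of DNA polymerase delta, read 1639 and 1901 against 2599 and 2526, and Ccne1, the cyclin of S phase entry, read 895 and 864 against 1206 and 1427. Chaf1b, of a chromatin assembly factor, read 293 and 324 against 471 and 524, and Dut, which keeps uracil out of DNA, read 1212 and 1356 against 1706 and 1894. These changes ran from 1.4-fold (Dut) to 1.61-fold (Chaf1b). Of 13 inhibitors of the cycle, Cdkn1c fell from 143699 and 149673 to 109475 and 89403 (1.48-fold lower, adjusted p = 0.0333), and Gadd45a, a stress-induced inhibitor of Cdk1, rose from 1459 and 1676 to 2643 and 2595 (1.67-fold, adjusted p = 0.00795). That was 1 gene each way among the 13, while 4.65% of all genes were called lower and 2.99% higher. The median of the 13 was -0.1.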

How the data were processed

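RNA-seq libraries (2 ctrl, 2 Phf8oe, read pairs of 150 bases per the labels) were processed by the authors with bcl2fastq 2.20, Trimmomatic 0.36, STAR 2.5.2b and DESeq2 on the rat builds rn6 and Rnor_6.0, per the submitters' processing notes. The gene counter, annotation release and use of strand were not given in the sources used here. Values were deposited as raw counts, but they are a signal, reads divided by a size factor and rounded: the 85 whole numbers that such scaling leaves empty in Phf8oe replicate 2 were all absent. The value of 1 read was an estimated 0.8445 and 1.0176 for ctrl, against 0.9549 and 1.4159 for Phf8oe. The 4 sample files equal their columns of the series table. Replicates differed beyond counting error, with chi-square over its degrees of freedom at 20.8 (ctrl) and 33.6 (Phf8oe). The labels call them biological replicates but do not say whether they came from separate transductions. The p-values thus measure only the spread among these libraries.

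Genes reaching 10 in 2 or more libraries were tested by limma 3.58.1 (R 4.3.3) after taking log2(value + 1), with group as the only term, a variance trend and robust moderation (residual degrees of freedom 2, median prior 6.99), two-sided, Benjamini-Hochberg adjusted over all 14368 genes, threshold 0.05. Fold changes are on that scale. The procedure was also run on simulated data in which genes varied independently, unlike the members here. The outcome of that run is not reported here. The members and lists were chosen with earlier results of these data known. Values in every library were given for members past the threshold, for the member of each role with the smallest p and that with the highest mean, and for the extremes of fold change; in each list, up to 4 genes past the threshold or the 2 with the highest mean. Any further gene was picked once its values were known. Gene length with introns (RefSeq, GRCr8, not the build of the counts) stood in for the planned protein length. Alternatives covered limma-voom, scaling, filters, pseudocounts, moderation, replicate pairing and leaving out each library. Python 3.11.15 was used for summaries and figures.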

Additional observations from a re-analysis of the deposited data

How the results depend on the processing

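The median log2 fold change of the 44 G2 and mitosis genes stayed positive under every alternative run, between 0.31 and 0.37 under other scalings, filters, pseudocounts and models. With 1 library left out it ranged from 0.16 (without ctrl replicate 1) to 0.44 (without ctrl replicate 2). The count of members called, 3, was 3 or 4 with limma-voom, either scaling, either filter, either pseudocount and no robust moderation, with Cdc20, Birc5 and Ube2s called each time. It was 0 without the variance trend, where 0 of all genes and 0 list genes passed. Leaving out 1 library at a time gave 0 to 10 members, 20 to 2145 of all genes (1098 in the comparison reported) and 1 to 36 list genes (20 reported). With a ctrl library left out, the spread is measured in the Phf8oe libraries alone and the lone ctrl library is assumed to vary like them. List genes numbered 13 without robust moderation.

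No pairing by replicate number was seen: the differences between replicates correlated at -0.13 across genes, which cannot exclude shared handling. With a replicate block 0 members, 373 of all genes and 7 list genes passed. With crossed pairing, added after the data were seen, 12 members, 2354 of all genes and 38 list genes passed.

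Changes of sign were seen in 4 members, Cenpf, Mki67, Bub1b and Kif23. Cenpf went from -0.03 to 0.01 with upper quartile scaling, and leaving out 1 library gave -0.21 to 0.15 (0.03 without Phf8oe replicate 1). Leaving out 1 library gave -0.1 to 0.2 for Mki67, -0.01 to 0.39 for Bub1b and -0.05 to 0.24 for Kif23, each lowest without ctrl replicate 1. The lowest value of a member in any library was 205; the effect of depth on the calls was not tested.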
